A study of Mus musculus with 23 samples.

Results

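The proximal T-cell receptor (TCR) signaling molecules are the kinases, adaptors and effector enzymes that act within the first steps after the receptor is engaged. Their genes were taken by name from the expression table, which gave 9 of its 24475 genes: Lck, Fyn, Zap70, Lat, Lcp2, Plcg1, Vav1, Prkcq and Rasgrp1. Each was listed once and had a value in all 23 libraries.

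The T-cell receptor has no enzyme of its own. Its CD3 and zeta chains are phosphorylated by the Src-family kinases Lck and Fyn, and the kinase Zap70 docks on the phosphorylated chains. Zap70 then phosphorylates the adaptors Lat and Lcp2 (SLP-76), on which Vav1 and Plcg1 assemble. Plcg1 makes diacylglycerol, the lipid that recruits Prkcq (protein kinase C theta) and Rasgrp1, an activator of Ras. In the thymus these molecules carry the signals that select developing T cells.

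The study followed T-cell acute lymphoblastic leukemia (T-ALL) that arises after a newborn thymus is grafted under the kidney capsule of an immunodeficient mouse. The controls were 6 libraries of normal thymus from C57BL/6 mice. WT T-ALL comprised 14 spleens of BALB/c Rag2-/-Il2rg-/- mice with tumors from a wild-type donor thymus, which by the methods came from a congenic line on the C57BL/6 background. Notch3 KO T-ALL comprised 3 spleens of the same host strain, with tumors from a Notch3 knockout thymus made by inserting a β-galactosidase gene into the first coding exon. Tissue, host strain and disease therefore part together between the thymus and both T-ALL groups and cannot be told apart, and the hosts keep their own erythroid and myeloid cells. Ages are not given in the labels. The labels number the libraries but do not say that each came from a separate animal, so p-values measure the spread between these libraries.

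All values are log2(scaled RPKM + 1), where RPKM is a read number divided by transcript length and library size, scaled by the authors to the same 75th percentile in every library. A difference of 1 is a 2-fold change for all but the lowest genes. No counts were given, so the depth behind each library is unknown. Genes reaching a scaled RPKM of 1 in 3 or more of the fitted libraries were tested with limma, and a gene was called at an adjusted p under 0.05 over all genes tested. All 9 members passed this filter in every comparison.

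Some libraries stood apart. WT T-ALL 110 lay farthest from 0 on the first component of the spread within groups (loading 0.68, 21.6% of the spread), beside 0.33 for WT T-ALL 108 and -0.34 for WT T-ALL 4, and it also had the highest neutrophil genes. Mitochondrial genes made up 44.5% of the summed scaled RPKM in WT T-ALL 7, which also had the lowest CD3 chains, beside 9.84% to 20.2% in the other WT T-ALL libraries, 6.64% to 22.5% in thymus and 11.2% to 19.6% in Notch3 KO T-ALL. Leaving out WT T-ALL 7 changed no call and no sign of a member. The summed scaled RPKM of the 7 neutrophil genes was 57.1 to 530 in thymus, with 636 to 84321 for WT T-ALL and 202 to 7564 for Notch3 KO T-ALL. Erythroid genes (9 listed) summed to between 24.5 and 393 in thymus, with 755 to 52053 for WT T-ALL and 31519 to 103261 for Notch3 KO T-ALL. The 10 T-lineage genes summed to 3383 to 3708, 1579 to 3635 and 1844 to 2861, so T-lineage transcripts were abundant in every library. B-cell genes summed to at most 6.44 in T-ALL, with Cd79a, Ms4a1, Pax5 and Ebf1 below 1 in every T-ALL library. Of 6 thymic epithelial genes, Foxn1, Psmb11 and Krt5 were below 1 in every thymus library, and the 6 together summed to between 3.90 and 6.99 there. Macrophage genes (7) summed to 8.47 to 51.9 in thymus, with 16.0 to 271 for WT T-ALL and 194 to 271 for Notch3 KO T-ALL. Megakaryocyte genes (5) summed to 0.66 to 1.20, 4.11 to 200.4 and 61.1 to 188. NK-cell genes (5), of which Gzma and Prf1 are also used by T cells, summed to 44.2 to 88.6, 370.3 to 1828 and 245 to 852. These sums were mostly Gzma, which averaged 61.0 in thymus, 822 in WT T-ALL and 544 in Notch3 KO T-ALL. Klrb1c and Prf1 were instead called lower in both T-ALL groups. Their log2 differences from thymus in WT T-ALL were -0.87 and -0.82. Ncr1 and Klre1 were below 1 in all 3 groups. Endothelial and stromal genes (6) summed to 32.7 to 38.8, 29.5 to 129.5 and 39.6 to 62.1. In bulk RNA, fewer cells of a type and less RNA per cell cannot be told apart.

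The labels give no batch. The libraries were placed in 2 sets by the non-members 1110002L01Rik, Srsf4 and Sco2, each split at the largest gap of its sorted values. All 3 genes gave the same split. They were chosen after the data were seen, and such a split never overlaps, so it does not test for a batch. Set A held 9 libraries (thymus 5 and 6, WT T-ALL 3, 4, 5 and 7, and all 3 of Notch3 KO T-ALL), and set B held the other 14. Values within the sets stand beside the comparisons with thymus. Notch3 itself was at 3.22, 2.59 and 3.74 in Notch3 KO T-ALL 1, 2 and 3, beside 2.62 to 4.29 in thymus and 3.17 to 5.78 in WT T-ALL. Library 2 lay just below both ranges and the other 2 lay inside both. The methods describe an insertion rather than a deletion, so a value over the whole transcript does not check the loss of the protein.

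Promoter sequences are shown for 5 members, to set genes with lower RNA in T-ALL (Lck, Lcp2, Vav1, Rasgrp1) beside one with no called change (Zap70). They are RefSeq sequences on GRCm38.p6, read 5′ to 3′ on the gene's strand, from the 250 bases before the start site. Where GENCODE M21 places an exon inside that window, only the bases before the exon are printed. Capitals mark matches on either strand to motifs of known factor families. The Ets motifs searched were AGGAAG and also the core CGGAA. The motif of E proteins was CAGCTG, that of Runx factors was TGTGGT, that of Tcf factors was CTTTGA and that of Gata factors was AGATAA.
Lck distal promoter, chr4:129573642-129573891, minus strand: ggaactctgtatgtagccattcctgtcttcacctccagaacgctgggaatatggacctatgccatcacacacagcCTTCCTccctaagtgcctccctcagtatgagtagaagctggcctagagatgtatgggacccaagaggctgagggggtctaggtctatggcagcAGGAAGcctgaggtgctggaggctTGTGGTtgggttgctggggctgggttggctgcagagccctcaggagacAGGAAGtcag
Zap70, chr1:36761548-36761797, plus strand: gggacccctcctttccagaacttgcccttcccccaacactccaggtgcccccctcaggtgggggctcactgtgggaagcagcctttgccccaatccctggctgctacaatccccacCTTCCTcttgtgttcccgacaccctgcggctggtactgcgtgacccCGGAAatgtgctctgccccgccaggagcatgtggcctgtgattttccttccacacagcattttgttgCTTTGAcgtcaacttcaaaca
Lcp2, chr11:34046678-34046919, plus strand: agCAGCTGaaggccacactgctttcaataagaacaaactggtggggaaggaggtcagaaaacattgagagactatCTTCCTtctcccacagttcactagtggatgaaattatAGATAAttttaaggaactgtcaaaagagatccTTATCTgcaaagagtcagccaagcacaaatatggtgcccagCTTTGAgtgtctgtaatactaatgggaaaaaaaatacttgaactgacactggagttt
Vav1, chr17:57278850-57279099, plus strand: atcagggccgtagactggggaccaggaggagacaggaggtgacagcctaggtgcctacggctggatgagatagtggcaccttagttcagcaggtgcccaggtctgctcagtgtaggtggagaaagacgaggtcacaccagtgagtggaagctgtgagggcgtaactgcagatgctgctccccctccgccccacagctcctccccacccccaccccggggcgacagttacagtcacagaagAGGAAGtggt
Rasgrp1, chr2:117343002-117343127, minus strand: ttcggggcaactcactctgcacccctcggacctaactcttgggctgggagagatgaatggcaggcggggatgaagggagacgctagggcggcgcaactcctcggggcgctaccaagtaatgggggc

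Over the 12 annotated starts of the 9 members (2 of Lck, 3 of Zap70, 1 of each other gene), AGGAAG stood in 8 windows. These belonged to 6 members, all but Fyn, Plcg1 and Rasgrp1. AGGAAG was found in 29.5% of all 32851 mouse windows of this length. CGGAA stood in 2 of the 12 windows (in Zap70 and Prkcq) and in 25.2% of all windows. The loose E-protein motif CANNTG, which includes CAGCTG, was found in 10 of the 12 windows and in 66.2% of all windows. These 10 belonged to 8 members. CAGCTG itself was found in 1 window (Lcp2) and in 13.0% of all windows. TGTGGT was found in 2 of the 12 windows against 14.0% of all windows, CTTTGA in 3 against 13.8%, and AGATAA in 1 against 9.99%. Whole windows were searched, also where GENCODE places an exon inside them, as it does in Prkcq from the first base. Members called lower in T-ALL and members not called both held AGGAAG, as the sequences of Vav1 and Zap70 show.

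In T-ALL from wild-type thymus, 7 of the 9 genes were lower than in normal thymus and none was higher. The falls were largest for Rasgrp1, Lcp2 and Vav1, while Fyn and Zap70 were not called. Of all 11919 genes tested, 22.3% were called lower and 29.3% higher. The median difference of the 9 members was -0.90, beside 0.08 over all genes tested. After quantile normalization the split of all genes called moved from 3493 higher and 2657 lower to 2848 higher and 3024 lower, and the median of all genes from 0.08 to -0.01. For 5 members (Lck, Lcp2, Plcg1, Vav1 and Rasgrp1) every WT T-ALL library lay below every thymus library, as did 6.64% of all genes tested.

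**Figure D1:**
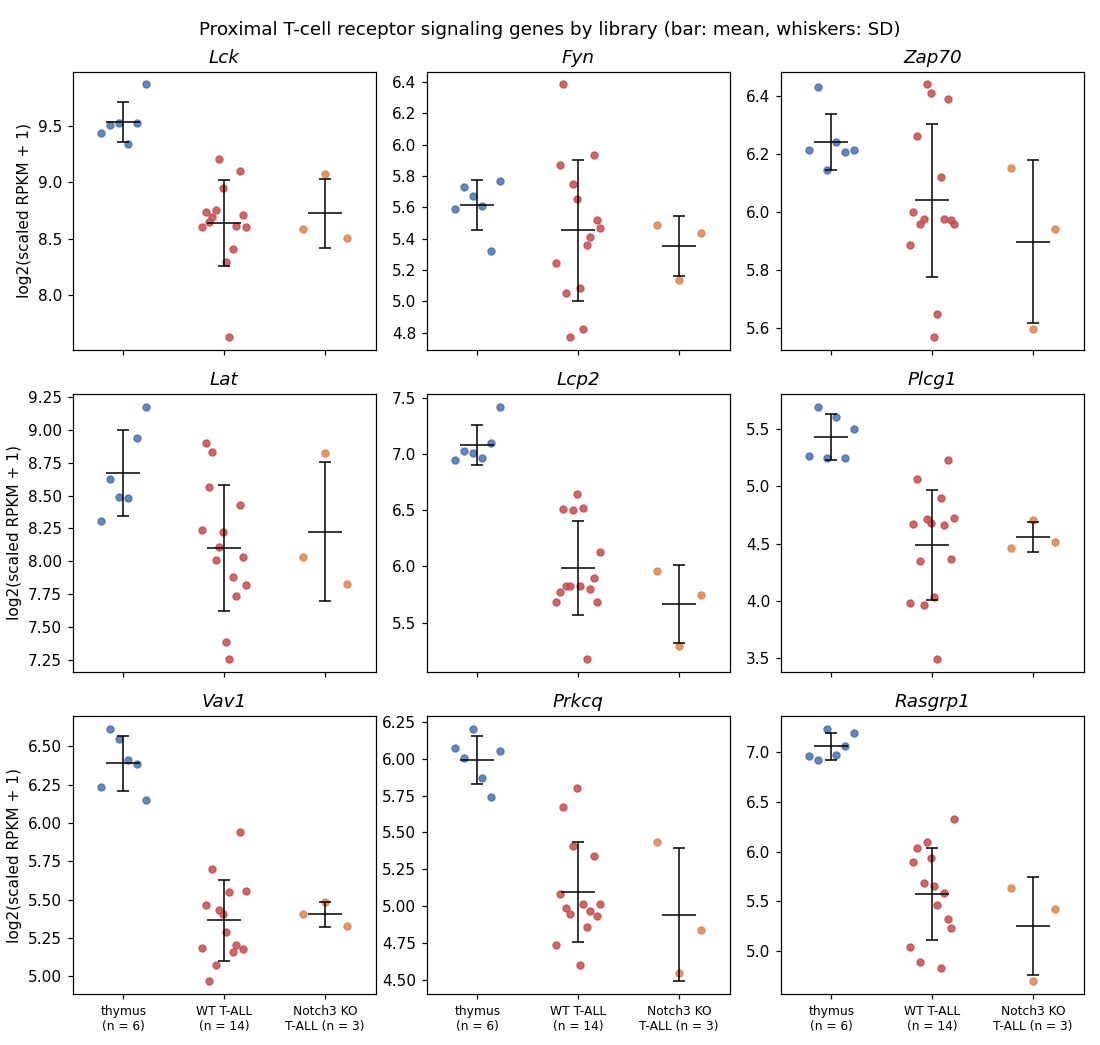
Level of each of the 9 genes as log2(scaled RPKM + 1), 1 point per library, in thymus (n = 6), WT T-ALL (n = 14) and Notch3 KO T-ALL (n = 3), with the mean as a bar and the SD as whiskers. Rasgrp1, Lcp2, Vav1, Lck and Plcg1 in T-ALL lay below every thymus library, while Fyn and Zap70 overlapped between the groups. The vertical axes differ between panels and do not start at 0.

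Lck (chromosome 4, 129548344 to 129573641), the kinase that starts the cascade, ran from 9.34 to 9.87 in thymus with a median of 9.52. In WT T-ALL it ran from 7.62 to 9.21 with a median of 8.67, and in the 3 Notch3 KO T-ALL libraries it was 8.59, 9.07 and 8.51. All 17 T-ALL libraries were below all 6 thymus libraries, and WT T-ALL 110 was the lowest. The difference from thymus was -0.90 ± 0.17 (SE; 1.86-fold lower, limma adjusted p = 0.00013) for WT T-ALL. For Notch3 KO T-ALL it was -0.81 ± 0.24 (limma adjusted p = 0.012). After quantile normalization both differences were -1.53 (limma adjusted p = 1.2e-06 and 0.00024).

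Fyn (chromosome 10, 39369743 to 39565381), the second Src-family kinase of the receptor, ran from 5.32 to 5.77 in thymus (median 5.64) and from 4.77 to 6.38 in WT T-ALL (median 5.44). Its Notch3 KO T-ALL values were 5.49, 5.13 and 5.44. The groups overlapped, with 5 WT T-ALL libraries below all thymus libraries and 3 above them, WT T-ALL 5 being the highest. The difference was -0.16 for WT T-ALL (95% interval -0.53 to 0.21, limma adjusted p = 0.46) and -0.26 for Notch3 KO T-ALL (-0.80 to 0.27, limma adjusted p = 0.44).

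Zap70 (chromosome 1, 36761798 to 36782821), the kinase that docks on the receptor chains, ran from 6.14 to 6.43 in thymus (median 6.21). WT T-ALL spanned 5.57 to 6.44 (median 5.98), and Notch3 KO T-ALL 1, 2 and 3 were at 6.15, 5.60 and 5.94. Of the 14 WT T-ALL libraries, 10 lay below every thymus library and 1 above them all. The difference was -0.20 for WT T-ALL (95% interval -0.46 to 0.06, limma adjusted p = 0.18) and -0.34 for Notch3 KO T-ALL (-0.72 to 0.03, limma adjusted p = 0.14). After quantile normalization both differences were called, at -0.37 (limma adjusted p = 0.015) and -0.55 (limma adjusted p = 0.016). The exact permutation test, unadjusted, gave p = 0.086 for WT T-ALL and p = 0.024 for Notch3 KO T-ALL.

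Lat (chromosome 7, 126363827 to 126369705), the membrane adaptor on which the signaling complex assembles, ran from 8.30 to 9.18 in thymus (median 8.56) and from 7.25 to 8.90 in WT T-ALL (median 8.07). In Notch3 KO T-ALL it was 8.03, 8.82 and 7.82. The groups overlapped, with 10 of 14 WT T-ALL libraries below all of thymus. The difference was -0.57 ± 0.22 for WT T-ALL (limma adjusted p = 0.030) and -0.45 ± 0.31 for Notch3 KO T-ALL (limma adjusted p = 0.27).

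Lat was the member that moved most with the library sets. In thymus its mean was 9.06 in set A (n = 2) and 8.48 ± 0.13 in set B (SD, n = 4), and in WT T-ALL it was 8.63 ± 0.30 (n = 4) and 7.89 ± 0.36 (n = 10). Within set B the WT T-ALL difference was -0.59 (limma adjusted p = 0.022) and within set A -0.43 (limma adjusted p = 0.38). The call was lost without thymus 5 (limma adjusted p = 0.072), without thymus 6 (limma adjusted p = 0.094) and without WT T-ALL 108 and 110 together (-0.44, limma adjusted p = 0.060). With the set as a term, Lat was called lower in Notch3 KO T-ALL too, at -0.91 (limma adjusted p = 0.0086), and likewise after quantile normalization, at -1.06 (limma adjusted p = 0.034). Within set A, which holds all 3 Notch3 KO T-ALL libraries and 2 of thymus, it was -0.83 and not called (limma adjusted p = 0.098). Quantile normalization took its WT T-ALL difference to -1.07 (limma adjusted p = 0.0021).

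**Figure D2:**
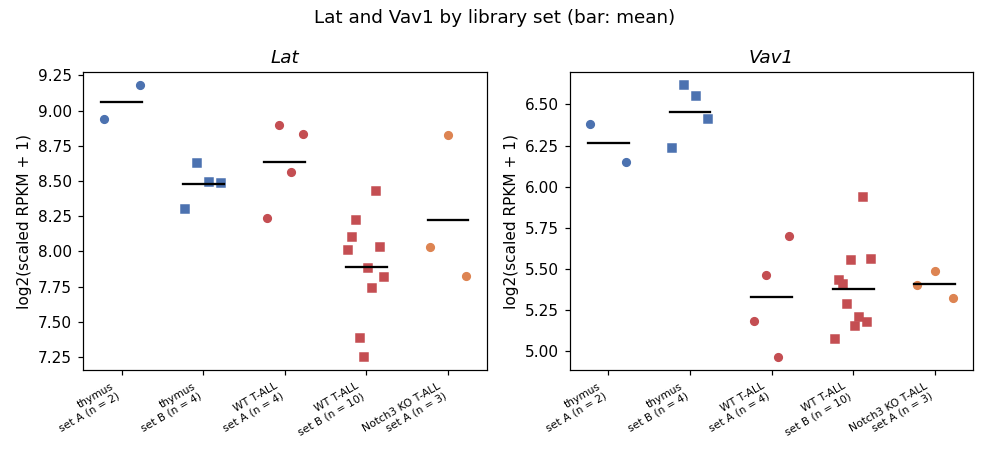
Lat and Vav1 as log2(scaled RPKM + 1) in each library, by group and by library set (circles, set A; squares, set B; bar, mean). Lat was higher in set A in thymus (9.06 against 8.48) and in WT T-ALL (8.63 against 7.89), while Vav1 stood at 5.33 and 5.38 in the sets of WT T-ALL. Notch3 KO T-ALL had libraries in set A only.

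Lcp2 (SLP-76, chromosome 11, 34046928 to 34092281), the cytosolic adaptor that brings Vav1 to Lat and that myeloid cells and platelets also use, ran from 6.95 to 7.42 in thymus (median 7.02). WT T-ALL ran from 5.17 to 6.64 (median 5.83), and Notch3 KO T-ALL 1, 2 and 3 were at 5.96, 5.29 and 5.75. Every T-ALL library was below every thymus library. The WT T-ALL difference was -1.09 ± 0.18 (2.13-fold lower, limma adjusted p = 2.4e-05) and the Notch3 KO T-ALL difference was -1.41 ± 0.26 (2.66-fold lower, limma adjusted p = 0.00018). Lcp2 in WT T-ALL 110, the library richest in neutrophil genes, was 6.52, in the upper part of its group.

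Plcg1 (chromosome 2, 160731310 to 160775760), the phospholipase that makes diacylglycerol and the calcium-releasing inositol phosphate, ran from 5.24 to 5.70 in thymus (median 5.39). In WT T-ALL it spanned 3.49 to 5.23 (median 4.67), and in Notch3 KO T-ALL it was 4.46, 4.70 and 4.51. The groups did not overlap, but the highest WT T-ALL library (126) came close to the lowest thymus library. The difference was -0.94 ± 0.19 for WT T-ALL (limma adjusted p = 0.00030) and -0.87 ± 0.28 for Notch3 KO T-ALL (limma adjusted p = 0.016).

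Vav1 (chromosome 17, 57279100 to 57329236), the exchange factor for Rac found across blood cells, ran from 6.15 to 6.62 in thymus (median 6.40) and from 4.97 to 5.94 in WT T-ALL (median 5.35). Its Notch3 KO T-ALL values were 5.40, 5.49 and 5.32. All T-ALL libraries were below all thymus libraries, and the spread within WT T-ALL was among the smallest of the members (SD 0.27). The difference was -1.03 ± 0.12 for WT T-ALL (2.04-fold lower, limma adjusted p = 5.7e-07) and -0.99 ± 0.18 for Notch3 KO T-ALL (limma adjusted p = 0.00019).

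Prkcq (chromosome 2, 11171905 to 11301226), the kinase that links the receptor to NF-κB, ran from 5.74 to 6.21 in thymus (median 6.03). WT T-ALL ran from 4.60 to 5.80 (median 5.00), and Notch3 KO T-ALL was at 5.44, 4.84 and 4.55 in libraries 1, 3 and 2. WT T-ALL 48 reached into the thymus range and the other 13 lay below it. The difference was -0.90 ± 0.16 for WT T-ALL (limma adjusted p = 6.4e-05) and -1.05 ± 0.23 for Notch3 KO T-ALL (limma adjusted p = 0.0010).

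Rasgrp1 (chromosome 2, 117279983 to 117342877), the diacylglycerol-bound activator of Ras, changed most. It ran from 6.92 to 7.23 in thymus (median 7.02), from 4.83 to 6.33 in WT T-ALL (median 5.62), and was 5.64, 4.70 and 5.43 in Notch3 KO T-ALL 1, 2 and 3. No T-ALL library reached the thymus range, and WT T-ALL 202 was the highest. The difference was -1.48 ± 0.19 for WT T-ALL (2.80-fold lower, limma adjusted p = 1.8e-06) and -1.80 ± 0.28 for Notch3 KO T-ALL (3.49-fold lower, limma adjusted p = 4.0e-05).

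In T-ALL from Notch3 knockout thymus, 6 of the 9 genes were thus lower than in thymus (Lck, Lcp2, Plcg1, Vav1, Prkcq and Rasgrp1) and none was higher. Over all genes tested, 16.3% were called lower and 21.2% higher. The same 6 genes did not overlap between the groups, beside 18.4% of all genes tested, and the median member difference was -0.87 beside 0.08 over all genes. Quantile normalization moved the split of all genes from 2527 higher and 1948 lower to 2061 higher and 2401 lower, and their median to -0.05. Both T-ALL groups were set against the same 6 thymus libraries, so the 2 comparisons are not independent. The calls of Lck and Plcg1 were lost without Notch3 KO T-ALL 1 (-0.75 and -0.82, limma adjusted p = 0.056 and 0.063) and without Notch3 KO T-ALL 3 (-0.70 and -0.85, limma adjusted p = 0.074 and 0.061).

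**Figure D3:**
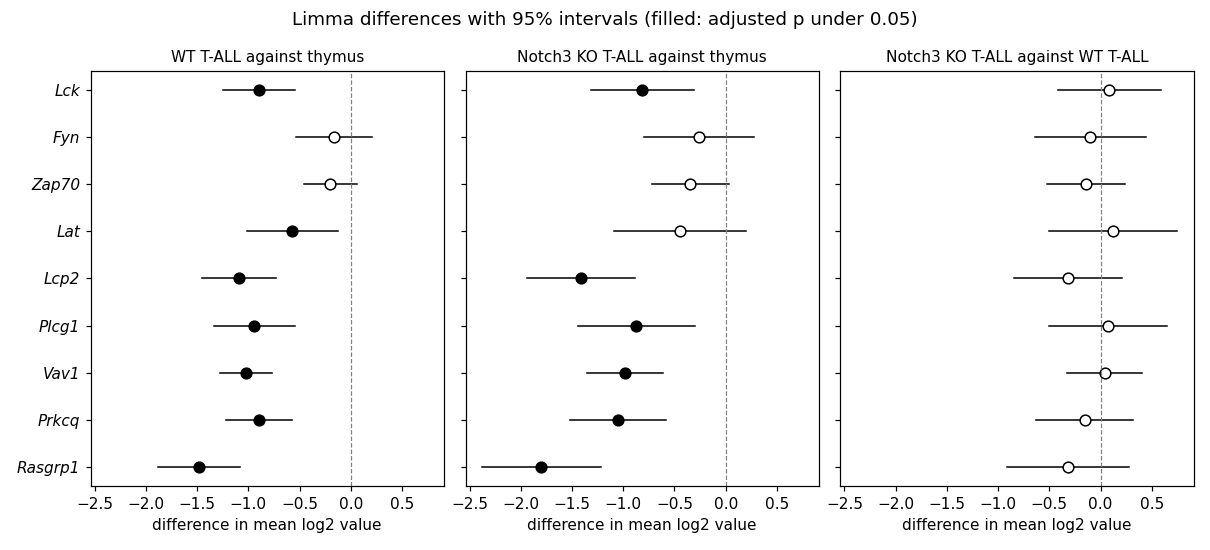
Difference in mean log2 value (horizontal axis) of each gene for the 3 comparisons, from limma, with 95% intervals as lines and filled points for an adjusted p under 0.05. Intervals of 7 genes in WT T-ALL and 6 in Notch3 KO T-ALL lay below 0 against thymus, and all 9 intervals included 0 between the T-ALL groups.

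The sum of the erythroid genes was higher in every T-ALL library than in any thymus library. With an erythroid score as a covariate, 2 members stayed called lower in WT T-ALL (Vav1 and Rasgrp1) and 1 in Notch3 KO T-ALL (Rasgrp1), and the Lat difference in WT T-ALL turned to 0.38 (limma adjusted p = 0.55). In Notch3 KO T-ALL Lat turned to 0.97 (limma adjusted p = 0.33). Of the members not called, Fyn turned to 0.25 and 0.36 and Zap70 moved to -0.0093 and -0.057. The differences of Lcp2 and Vav1 stayed near their size while their SE about doubled. Lcp2 stood at -1.06 ± 0.37 (SE; limma adjusted p = 0.053) in WT T-ALL and -1.36 ± 0.55 (limma adjusted p = 0.13) in Notch3 KO T-ALL. Vav1 stood at -1.08 ± 0.38 (limma adjusted p = 0.091) in Notch3 KO T-ALL, and Prkcq at -0.76 ± 0.33 and -0.85 ± 0.49 (limma adjusted p = 0.12 and 0.30). Lck (-0.71 and -0.54) and Plcg1 (-0.71 and -0.52) were smaller. The erythroid genes and the groups cannot be told apart by this fit, and their part in the falls was not tested. Within set A alone, with 2 thymus libraries, 4 members were called lower in WT T-ALL and the same 4 in Notch3 KO T-ALL (Lck, Lcp2, Vav1 and Rasgrp1). Plcg1 and Prkcq lost their calls there with differences near those of all libraries. Plcg1 was -0.86 in WT T-ALL (limma adjusted p = 0.069) and -0.82 in Notch3 KO T-ALL (limma adjusted p = 0.070). Prkcq was -0.78 in WT T-ALL (limma adjusted p = 0.12) and -0.96 in Notch3 KO T-ALL (limma adjusted p = 0.059). Within set B, 7 were called lower in WT T-ALL, with Plcg1 at -0.98 (limma adjusted p = 0.0063) and Prkcq at -0.95 (limma adjusted p = 0.00073). Fyn was 0.09 in set A and -0.27 in set B, called in neither. The shares of all genes called with the covariate and within each set are not given here, so these counts of members have no background beside them.

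Between the T-ALL groups, none of the 9 genes was called by limma, and none had an unadjusted p under 0.05. Of the 11677 genes tested there, 0.591% were called higher and 0.0257% lower in Notch3 KO T-ALL. The exact permutation test, whose smallest possible p is 0.00147 here, also put no member under 0.05. The intervals show what 3 libraries can resolve. For Vav1 the difference was 0.04 (95% interval -0.33 to 0.41) and for Zap70 -0.14 (-0.53 to 0.24). For Lck it was 0.08 (-0.42 to 0.59), for Fyn -0.10 (-0.64 to 0.44), for Plcg1 0.07 (-0.50 to 0.65) and for Prkcq -0.16 (-0.63 to 0.32). For Lat it was 0.13 (-0.50 to 0.75), for Lcp2 -0.32 (-0.85 to 0.21) and for Rasgrp1 -0.32 (-0.91 to 0.27). The signs of Lck, Fyn, Zap70, Lat, Plcg1 and Prkcq turned under at least 1 alternative.

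The order of the members by level, which RPKM allows since it is per transcript length, was led in every group by Lck and then Lat. In thymus they stood at 9.54 ± 0.18 and 8.67 ± 0.33 (SD, n = 6), followed by Lcp2 (7.08 ± 0.18) and Rasgrp1 (7.06 ± 0.13), which did not differ beyond their spread. Vav1 (6.39 ± 0.18), Zap70 (6.24 ± 0.10), Prkcq (5.99 ± 0.16), Fyn (5.62 ± 0.16) and Plcg1 (5.43 ± 0.20) came next. Vav1 was above Zap70 in 5 of 6 thymus libraries and Fyn above Plcg1 in 5 of 6. In WT T-ALL, Lck (8.64 ± 0.38) exceeded Lat (8.10 ± 0.48) in 12 of 14 libraries. Zap70 (6.04 ± 0.26) came next, level with Lcp2 (5.98 ± 0.42, lower than Zap70 in 8 of 14). Rasgrp1 (5.57 ± 0.46), Fyn (5.45 ± 0.45) and Vav1 (5.36 ± 0.27) did not differ beyond their spread, and Prkcq (5.10 ± 0.34) and Plcg1 (4.49 ± 0.48) were lowest. The Notch3 KO T-ALL order also ran Lck (8.72 ± 0.31), Lat (8.23 ± 0.53), Zap70 (5.90 ± 0.28) and Lcp2 (5.67 ± 0.34, n = 3). Vav1 (5.40 ± 0.08), Fyn (5.35 ± 0.19) and Rasgrp1 (5.25 ± 0.49) overlapped, above Prkcq (4.94 ± 0.45) and Plcg1 (4.56 ± 0.13).

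The 14 WT T-ALL libraries varied more than thymus for every member, with SDs of 0.26 to 0.48 against 0.10 to 0.33. Zap70 spanned 1.83-fold from its lowest library (108) to its highest (36), and Plcg1 spanned 3.35-fold from library 110 to library 126. The Zap70 spread was larger than that of 12.8% of the 8321 genes whose scaled RPKM averaged 5 or more in WT T-ALL, and the Plcg1 spread larger than that of 70.6%. WT T-ALL 110 was the lowest for Lck, Lat and Plcg1, WT T-ALL 108 for Zap70 and Prkcq, and WT T-ALL 111 for Lcp2 and Rasgrp1. WT T-ALL 126, 36 and 48 were each the highest for 2 members (Plcg1 and Vav1, Lck and Zap70, and Lcp2 and Prkcq). Leaving out libraries 108 and 110 ended the call of Lat in WT T-ALL and of no other member.

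**Figure D4:**
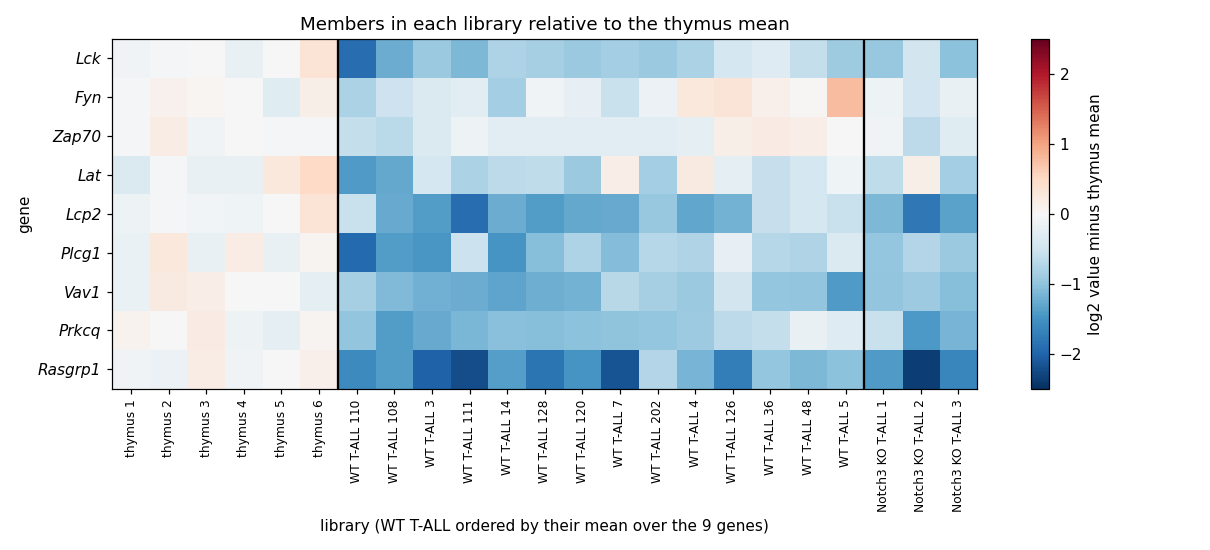
Log2 value of each gene in each library minus its mean in thymus, with blue for lower and red for higher values and vertical lines between thymus, WT T-ALL and Notch3 KO T-ALL. WT T-ALL libraries are ordered by their mean over the 9 genes, for display only. The rows of Rasgrp1, Lcp2 and Vav1 were blue in all T-ALL libraries, while Fyn held red cells, the strongest in WT T-ALL 5.

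Across the 14 WT T-ALL libraries, 32 of the 36 pairs of members had a positive Pearson r, with a median of 0.40 and a range of -0.05 to 0.83. These pairs share libraries, depth and scaling, and are given as a description. The closest pairs were Fyn with Plcg1 (r = 0.83), Zap70 with Prkcq (0.81) and Lck with Zap70 (0.80). Among these 8321 genes, the gene most like each member over these libraries was Tsnax for Lck (r = 0.88), Tox for Fyn (0.87), Tspyl3 for Zap70 (0.91) and Dexi for Lat (0.91). It was Trim30a for Lcp2 (0.92), Kansl1 for Plcg1 (0.90), Pgs1 for Vav1 (0.90), Gpr171 for Prkcq (0.94) and Dennd2d for Rasgrp1 (0.92).

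The receptor chains on which these kinases act moved unequally. Cd3d, Cd3e and Cd3g were not called in any comparison, with WT T-ALL differences from thymus of 0.06 ± 0.26, -0.16 ± 0.24 and -0.26 ± 0.28 (SE). Cd247, the zeta chain that docks Zap70, fell by 1.53 on the log2 scale in WT T-ALL (limma adjusted p = 2.7e-06) and by 1.45 in Notch3 KO T-ALL (limma adjusted p = 0.00064). The mean of the 4 chains was 8.27 ± 0.12 in thymus (SD, n = 6), 7.79 ± 0.44 in WT T-ALL and 7.63 ± 0.37 in Notch3 KO T-ALL.

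Set against this chain mean in the same library, the members parted. For WT T-ALL against thymus, Rasgrp1 was lower, with a difference of -1.01 (exact permutation p = 0.00059, two-sided), and so was Lcp2, at -0.62 (exact permutation p = 0.012). Vav1 (-0.55, exact permutation p = 0.043), Prkcq (-0.42, exact permutation p = 0.019) and Lck (-0.42, exact permutation p = 0.024) were also lower. Plcg1 (-0.47) and Lat (-0.10) had exact permutation p of 0.067 and 0.75. Fyn (0.31, exact permutation p = 0.17) and Zap70 (0.27, exact permutation p = 0.084) were the 2 members with a positive difference. For Notch3 KO T-ALL, Rasgrp1 (-1.17) and Lcp2 (-0.78) lay below all thymus libraries in all 3 libraries, each at the smallest exact permutation p possible (0.0119). Fyn was 0.37 higher there (exact permutation p = 0.024) and Prkcq -0.42 (exact permutation p = 0.024). These p-values are not adjusted over the 27 tests. No member differed between the T-ALL groups on this scale, with exact permutation p from 0.41 to 0.99.

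These differences depend on the reference, of which Cd247 fell itself. With Cd3d, Cd3e and Cd3g alone, none of the 9 members had a positive difference in WT T-ALL, and Fyn and Zap70 stood at -0.04 and -0.08. The falls of Rasgrp1 (-1.36), Lcp2 (-0.97), Vav1 (-0.91), Lck (-0.78) and Prkcq (-0.78) were larger there, with exact permutation p from 0.00010 to 0.0073. Plcg1 also passed there, at -0.82 (exact permutation p = 0.012). In Notch3 KO T-ALL the Fyn difference with these 3 chains was 0.09 (exact permutation p = 0.56). Of the 10 T-lineage genes, 6 were themselves called lower and none higher in WT T-ALL, with a median difference of -0.66. Against their mean, Fyn was 0.70 higher (exact permutation p = 0.00044) and Zap70 0.66 higher (exact permutation p = 2.6e-05, the smallest possible), and Rasgrp1 stayed lower at -0.62 (exact permutation p = 0.0019). The other falls did not pass with the 10 genes as reference, with Lcp2 at -0.23 (exact permutation p = 0.18) and Vav1 at -0.16 (exact permutation p = 0.42). Plcg1 was at -0.08 (exact permutation p = 0.70), Lck at -0.03 (exact permutation p = 0.83) and Prkcq at -0.03 (exact permutation p = 0.76). Rasgrp1 was lower under all 3 references in both T-ALL groups. Cd3d, Cd3e and Cd3g are in each of these references, so the 3 are not independent. A ratio within a library shows unequal change and does not say which gene was constant.

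**Figure D5:**
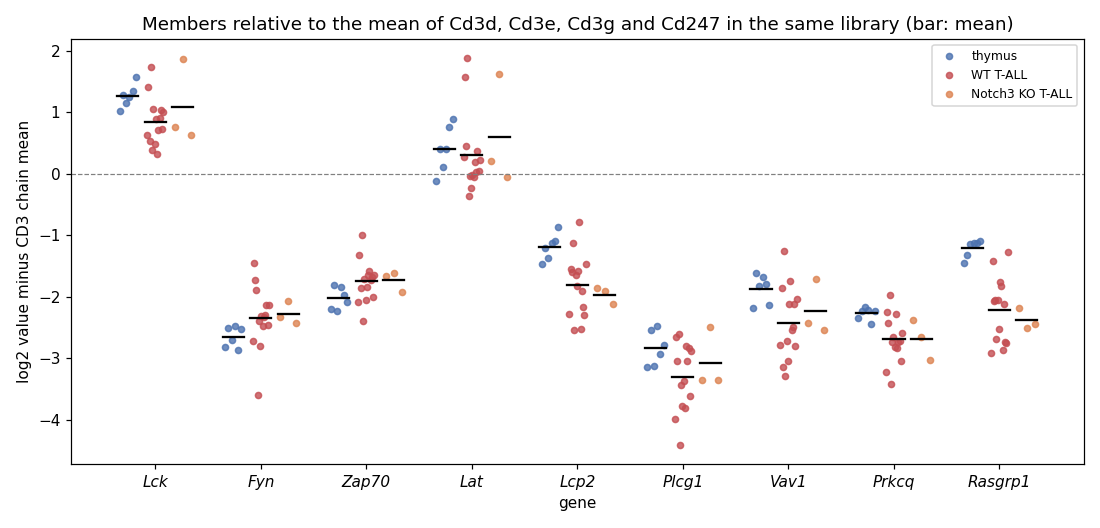
Log2 value of each gene minus the mean of Cd3d, Cd3e, Cd3g and Cd247 in the same library, 1 point per library, with the mean of each group as a bar. The mean of Rasgrp1 was -1.21 for thymus, -2.22 for WT T-ALL and -2.38 for Notch3 KO T-ALL, and Zap70 stood at -2.02, -1.75 and -1.74. Points above the dashed line at 0 exceed the chain mean.

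Over the 14 WT T-ALL libraries, none of the 9 members followed the chain mean after adjustment for the 9 correlations (lowest adjusted permutation p = 0.14 for Pearson's r and 0.065 for Spearman's rho, both for Zap70). Zap70 had r = 0.63 (permutation p = 0.016) and rho = 0.70 (permutation p = 0.0073), and r = 0.63 without WT T-ALL 7 and 48, the libraries farthest from the median. Lck had r = 0.55 (permutation p = 0.040) and rho = 0.64 (permutation p = 0.017), and r = 0.66 without them. Lat had r = 0.03 (permutation p = 0.91) and rho = 0.15 (permutation p = 0.62), and r = 0.35 without WT T-ALL 7 and 48. The correlation of Vav1 was negative, at r = -0.36 (permutation p = 0.21) and rho = -0.45 (permutation p = 0.11). The other 5 had r between 0.28 and 0.53. Without WT T-ALL 7 and 48 these 5 ran from -0.02 (Rasgrp1) to 0.41 (Prkcq), and Vav1 had r = -0.28. Within set B (10 libraries), 3 members passed after adjustment, with r = 0.84 for Lat (adjusted permutation p = 0.012), 0.80 for Lck (adjusted permutation p = 0.012) and 0.76 for Zap70 (adjusted permutation p = 0.034). Set A held 4 WT T-ALL libraries, too few for a correlation.

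Txk and Tec, of the kinase family that joins Zap70 in activating Plcg1 on the Lcp2 scaffold, were lower in both T-ALL groups. Txk was between 4.85 and 5.60 in thymus and between 1.24 and 4.54 in WT T-ALL. It fell by 2.13 on the log2 scale in WT T-ALL (limma adjusted p = 9.1e-05) and by 2.62 in Notch3 KO T-ALL (limma adjusted p = 0.00083). Tec fell by 1.46 (limma adjusted p = 5.3e-06) and 1.27 (limma adjusted p = 0.0022). Ptprc (CD45), the phosphatase that keeps Lck ready to act, fell by 0.74 (limma adjusted p = 0.0013) and 1.11 (limma adjusted p = 0.0016). None of these genes was called between the T-ALL groups.

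Among 15 partners of the Lat and Lcp2 scaffold, 11 were called lower and none higher in WT T-ALL, and 7 were lower in Notch3 KO T-ALL. Of all genes tested, 22.3% were called lower in WT T-ALL and 16.3% in Notch3 KO T-ALL. The median difference of the 15 was -0.82 and -0.93, beside 0.08 over all genes. Sit1, a transmembrane adaptor that dampens signaling, fell by 2.10 (limma adjusted p = 2.2e-07) and 1.71 (limma adjusted p = 0.00047). Trat1, an adaptor of the receptor complex, fell by 1.54 in WT T-ALL, and Themis, needed for thymocyte selection, fell by 2.08 in Notch3 KO T-ALL. Several of the 16 negative regulators listed, Sit1 among them, were also counted among the 15 partners, so the 2 lists are not separate. Of the 16 regulators, 10 were lower and 1 higher in WT T-ALL, and 8 lower and 1 higher in Notch3 KO T-ALL. Their median difference was -0.78 and -0.65, and the shares of all genes called higher were 29.3% and 21.2%. Dgka, the kinase that removes diacylglycerol, fell by 1.78 (limma adjusted p = 1.6e-05) and 2.30 (limma adjusted p = 0.00013), so that it was lower together with the diacylglycerol-dependent Rasgrp1 and Prkcq. Cbl, a ubiquitin ligase, fell by 1.82 in Notch3 KO T-ALL. The phosphatase gene Ptpn2 was the 1 that rose in WT T-ALL (0.46 ± 0.16 SE), and Dok1, a docking adaptor, was the 1 in Notch3 KO T-ALL (0.75 ± 0.24 SE).

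Further downstream, 2 of 10 Ras and MAP kinase genes were lower in each T-ALL group, a share near that of all genes tested (22.3% and 16.3% called lower). Nras was lower in WT T-ALL (-0.37), and Nras and Sos1 were lower in Notch3 KO T-ALL (-0.62 and -0.49). All 3 genes listed for the NF-κB branch were lower in WT T-ALL and 2 in Notch3 KO T-ALL. Bcl10, an adaptor of this branch, fell by 0.60 (limma adjusted p = 0.00034) and 0.70 (limma adjusted p = 0.0037). Of 11 calcium and NFAT genes, 4 were lower in WT T-ALL and 5 in Notch3 KO T-ALL. Nfatc3, a transcription factor of this branch, fell by 1.40 and 1.44, and the calcium channel gene Itpr1 by 1.06 and 1.04. No gene of any of these lists was called between the T-ALL groups.

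Other blood cells use family counterparts of some of these molecules. Of 15 tested (17 listed), 4 were higher and 2 lower in WT T-ALL, with a median difference of 0.00, and 4 were higher and 1 lower in Notch3 KO T-ALL, with a median of 0.24. Of all genes tested, 29.3% were called higher and 22.3% lower in WT T-ALL, and 21.2% and 16.3% in Notch3 KO T-ALL, so these counts are near the background. Fgr, a Src-family kinase of myeloid cells, rose by 1.58 ± 0.23 (SE) in WT T-ALL, where all 7 neutrophil genes also rose. In Notch3 KO T-ALL, Lyn rose by 1.88 ± 0.66 and Btk by 1.73 ± 0.55, and all 7 macrophage genes were called higher. The part of host cells in these rises was not tested. Rasgrp2 fell by 1.01 in WT T-ALL and by 1.14 in Notch3 KO T-ALL, and Vav2 fell by 0.94 in WT T-ALL.

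Syk, the counterpart of Zap70 in B and myeloid cells, was steady in thymus (3.18 to 3.45) and ran from 1.07 to 5.14 in WT T-ALL, with WT T-ALL 110 the highest. The gap of Zap70 over Syk was 2.89 ± 0.13 in thymus (SD, n = 6), 3.37 ± 1.26 in WT T-ALL and 3.16 ± 0.53 in Notch3 KO T-ALL. It shrank to 0.51 in WT T-ALL 110 and reached 5.36 in WT T-ALL 36. The gap of Plcg1 over Plcg2 ran from -1.06 in WT T-ALL 110 to 4.51 in WT T-ALL 5, and that of Lat over Lat2 from 4.21 in library 110 to 7.71 in library 5. WT T-ALL 110 thus had the highest Syk, Plcg2 (4.55) and Lat2 (3.04) of its group together with the highest neutrophil genes. Lck exceeded Fyn by 3.92 ± 0.19 in thymus, 3.19 ± 0.40 in WT T-ALL and 3.37 ± 0.49 in Notch3 KO T-ALL.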

How the data were processed

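RNA was sequenced from 23 mouse libraries (6 thymus, 14 WT T-ALL, 3 Notch3 KO T-ALL). By the methods, the authors made stranded mRNA libraries and mapped paired reads with OSA (in ArrayStudio) to mouse mm10 transcripts. The authors deposited log2 values, log2(scaled RPKM + 1), with no counts. The scale was read from the values, whose 75th percentile was 3.46 in every library. Genes were matched by gene identifier (24375 matched RefSeq), and 27 symbols turned into dates were restored. Limma 3.58.1 in R 4.3.3 (lmFit, eBayes with trend and robust, Benjamini-Hochberg) was fitted to all 3 groups for the comparisons with thymus (11919 genes) and to the T-ALL groups alone for theirs (11677 genes). Single values were tested by two-sided exact permutation tests over libraries, and correlations with 100000 permutations (Python 3). The scripts were tested on simulated data. The members, lists, tests and alternatives were chosen with earlier results of these data known. Named genes were all members, receptor chains, Tec kinases, Syk and Ptprc, per list and comparison at most 2 rises and 2 falls, and the gene most like each member. Lat2 and Plcg2 were named after their values were seen. Ahsp of the erythroid list was not used here, and some named results are not reported here. Alternatives were normalization, offset, filter, fit, covariates, each library left out, the replicate block, the library sets, and without WT T-ALL 108 and 110, of which the last 2 were chosen after seeing the data.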

Additional observations from a re-analysis of the deposited data

Results flagged for a closer look

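In thymus, the highest library stood apart for 3 members by Dixon's test at the 95% level, which flags about 1 in 20 groups by chance. The gap to the next library was 0.648 of the range for Lck and 0.692 for Lcp2, both in thymus 6, and 0.663 for Zap70 in thymus 2. Thymus 6 belongs to set A and had Lck at 9.87, Lat at 9.18 and Lcp2 at 7.42, the highest of the 6. Without thymus 6, Lck and Lcp2 were still called lower in both T-ALL groups.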

How the results depend on the processing

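Of 918 results of single members under an alternative, 869 kept their direction and their side of the threshold. With the direction kept, 25 lost and 5 gained a call. The other 19 changed sign, and none of them was called after the change. Lat in WT T-ALL with the erythroid score was among these 19, so it also lost its call. Vav1 and Rasgrp1 stayed called lower in WT T-ALL under all 37 alternatives, and Rasgrp1 in Notch3 KO T-ALL under all 36. With the erythroid score as covariate, the members called lower numbered 2 in place of 7 in WT T-ALL and 1 in place of 6 in Notch3 KO T-ALL, Fyn turned to 0.25 and 0.36, and Lat to 0.38 and 0.97. Lcp2 (-1.06 and -1.36) and Vav1 (-1.09 and -1.08) stayed near their size with larger SEs. Within set A, 4 members were lower in WT T-ALL and Fyn stood at 0.094. No share of all genes called under these alternatives stands beside the counts.

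Numbers shared between groups did not pair the libraries: deviations of same-numbered libraries correlated at -0.24, 0.09 and 0.13 for WT T-ALL with thymus, and at 0.04, -0.03 and 0.15 for Notch3 KO T-ALL with thymus. With the replicate block (numbers 3, 4 and 5 only), 3 members were lower in WT T-ALL (Lcp2, Vav1 and Rasgrp1) and Fyn stood at 0.30. Lat went to -0.071 (limma adjusted p = 0.88), and Lck, Plcg1 and Prkcq were not called, at -0.80, -0.80 and -0.78 (limma adjusted p = 0.066, 0.075 and 0.11). In Notch3 KO T-ALL the block (numbers 1, 2 and 3) changed no call. The T-ALL groups share 1 number and could not be blocked.

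Between the T-ALL groups no alternative gave a call. Fyn turned to 0.14 with the erythroid score, Lat to -0.41 with the set as a term and within set A, and without WT T-ALL 108 and 110 Lck, Lat and Plcg1 stood at -0.029, -0.0050 and -0.050. With 1 library left out, differences ran from -0.091 to 0.19 for Lck, -0.17 to 0.0094 for Fyn, -0.27 to 0.0068 for Zap70, -0.17 to 0.33 for Lat, -0.0056 to 0.13 for Plcg1 and -0.40 to 0.042 for Prkcq. Leaving out Notch3 KO T-ALL 2 turned the sign of all 6, and Plcg1 also turned without WT T-ALL 110.

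Members with a positive difference relative to the CD3 chains numbered 0 in place of 2 in WT T-ALL without Cd247, and 6 in place of 3 in Notch3 KO T-ALL with 10 T-lineage genes. Between the T-ALL groups there were 7, and 0 to 7 with 1 library left out (0 without Notch3 KO T-ALL 2, 4 without WT T-ALL 14). Correlations with the chain mean passed for 0 members in all 14 libraries and for 3 within set B. The causes of these changes were not tested. The lack of counts leaves the read number behind each value unknown, and Notch3 KO T-ALL had 3 libraries.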
